A study of Drosophila melanogaster with 2 samples.

Results

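The genes described here encode the proteins of the mitochondrial ribosome. They were taken as the protein-coding genes of the Ensembl release 115 annotation of the fly whose symbol starts with mRpL or mRpS, and there are 73 of them among 13945 protein-coding genes on the main chromosome arms. Of the 73, 47 are named for the large subunit (mRpL) and 26 for the small subunit (mRpS). The rule uses names only and no binding value, but it was set with earlier results of these data known. Peaks at these genes were read from ChIP-seq of CG12299 in whole Drosophila melanogaster embryos aged 0 to 24 h. The embryos came from a transgenic line that stably makes CG12299 with GFP at its C terminus, and the immunoprecipitation used an antibody against GFP. The signal therefore reports the tagged protein, averaged over every cell type of the embryo and the whole age span, and what drives the transgene is not stated in the labels. The 2 biological replicates form 1 group and nothing else was compared with it. The values below are therefore described beside the same values over all protein-coding genes, with no test.

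Mitochondria carry their own small genome, and its protein-coding genes specify subunits of the respiratory chain and ATP synthase. Those messages are read inside the organelle by a dedicated ribosome of bacterial descent, whose proteins are all made from nuclear genes in Drosophila, translated in the cytosol and imported. Some of the proteins have bacterial counterparts, such as mRpS2, mRpS10, mRpL23 and mRpL24, and others occur in mitochondrial but not in bacterial ribosomes, such as mRpS23, mRpL37 and mRpL41. CG12299 is a zinc finger protein of the nucleus that is predicted to bind DNA.

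The sequences under 6 thresholded summits away from transcribed exons are shown first, 5 of strong peaks that were low in G and C and 1 of a weaker peak, at mRpL2, that was not. Each runs 5′ to 3′ on the strand of the named gene, over 50 bp on each side of the summit in dm6. Capitals mark TTTAAAA, read on either strand, one of the words searched below. The windows are chr3R:15229487-15229587 (+) for mRpS10, chr2L:13835417-13835517 (−) for mRpS23, chr2L:4945438-4945538 (−) for mRpL24, chr3L:13018094-13018194 (−) for mRpL20, chr3L:4364370-4364470 (+) for mRpS6 and chr3L:11119981-11120081 (+) for mRpL2.
mRpS10: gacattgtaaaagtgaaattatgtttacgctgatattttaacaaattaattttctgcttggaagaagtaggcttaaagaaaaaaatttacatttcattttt
mRpS23: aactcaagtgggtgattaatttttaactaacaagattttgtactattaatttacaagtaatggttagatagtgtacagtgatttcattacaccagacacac
mRpL24: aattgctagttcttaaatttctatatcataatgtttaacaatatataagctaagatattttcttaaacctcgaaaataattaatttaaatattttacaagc
mRpL20: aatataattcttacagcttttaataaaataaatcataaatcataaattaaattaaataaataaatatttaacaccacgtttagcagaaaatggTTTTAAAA
mRpS6: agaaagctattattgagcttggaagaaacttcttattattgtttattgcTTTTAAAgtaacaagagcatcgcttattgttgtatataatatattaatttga
mRpL2: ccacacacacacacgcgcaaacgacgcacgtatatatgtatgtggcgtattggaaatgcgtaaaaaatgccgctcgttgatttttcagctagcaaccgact
G and C made up 23.8% of the bases at mRpS10, 29.7% at mRpS23, 18.8% at mRpL24, 15.8% at mRpL20 and 24.8% at mRpS6. The mRpL2 window held 46.5% and is given as the contrast. It lies in an intron of the neighbouring gene FoxK, while the other 5 lie between genes. The window of mRpS16, which is not shown, also lies between genes and held 57.4%. Whether the share goes with location was not tested.

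Whole stretches between a pair of starts are shown for mRpS2 and mRpL21, because they hold the summit and the E-box word CAGCTG apart from each other. Both are written 5′ to 3′ on the strand of the mitochondrial ribosomal protein gene, from the base after the partner's start to the base before the member's start, with CAGCTG in capitals. They are chr2L:4850420-4850640 (−) for mRpS2 with its partner Mon1 and chr3L:19255062-19255339 (−) for mRpL21 with its partner rept.
mRpS2/Mon1: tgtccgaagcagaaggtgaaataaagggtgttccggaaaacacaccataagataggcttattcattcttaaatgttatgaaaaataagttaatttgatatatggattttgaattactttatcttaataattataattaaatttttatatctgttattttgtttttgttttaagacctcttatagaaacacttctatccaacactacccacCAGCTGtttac
mRpL21/rept: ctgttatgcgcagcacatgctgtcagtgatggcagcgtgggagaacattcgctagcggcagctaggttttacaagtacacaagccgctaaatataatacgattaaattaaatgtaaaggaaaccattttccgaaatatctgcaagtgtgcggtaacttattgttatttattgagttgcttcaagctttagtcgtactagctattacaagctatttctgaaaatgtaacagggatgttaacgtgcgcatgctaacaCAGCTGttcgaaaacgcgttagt
In the first, of 221 bases, the summit is base 95 and the E-box starts at base 211. In the second, of 278 bases, the summit is base 132 and the E-box starts at base 256. In both, the E-box is close to the start of the ribosomal protein gene and the summit is near the middle of the stretch. All sequences were read from the release 6 reference assembly.

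In a long list without a threshold, peaks of the tagged protein lay near nearly all of the 73 genes, and the strict list marked 24 of them. That strict list is the authors' thresholded list of 3672 peaks, kept by them for reproducibility between the replicates. A gene was counted when a peak summit lay within 1000 bp of one of its annotated transcription start sites (TSSs). The 24 genes were 32.9% of the members (95% interval 22.3% to 44.9%, exact binomial), against 21.8% of all protein-coding genes (3036 of 13945). In the longer list called on both replicates together, 68 members (93.2%) had a summit in range, against 63.6% of all protein-coding genes. Among genes with a pooled summit the thresholded share was 35.3% for members (24 of 68) and 34.2% for all genes. The members thus stood above the background in the share with any peak, and near it in the share of those peaks that passed the threshold.

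Each peak carries a signalValue, the authors' own score. It has no stated scale and cannot be compared between lists, so ranks are given beside it, with rank 1 the highest score of a list. The lists carry no read counts, so depth is unknown, and the intervals here cover counting error only. The median signalValue of the strongest thresholded peak per gene was 168 for members and 163 for all protein-coding genes with such a peak. The members' scores were spread widely around that median. Of the 24 genes, 4 had a peak among ranks 1 to 100 (16.7%, against 3.43% of all thresholded protein-coding genes), 4 among ranks 101 to 1000 (16.7% against 27.8%) and 16 among the rest (66.7% against 68.7%). A small number of very strong peaks therefore sat above a majority of ordinary ones.

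**Figure D1:**
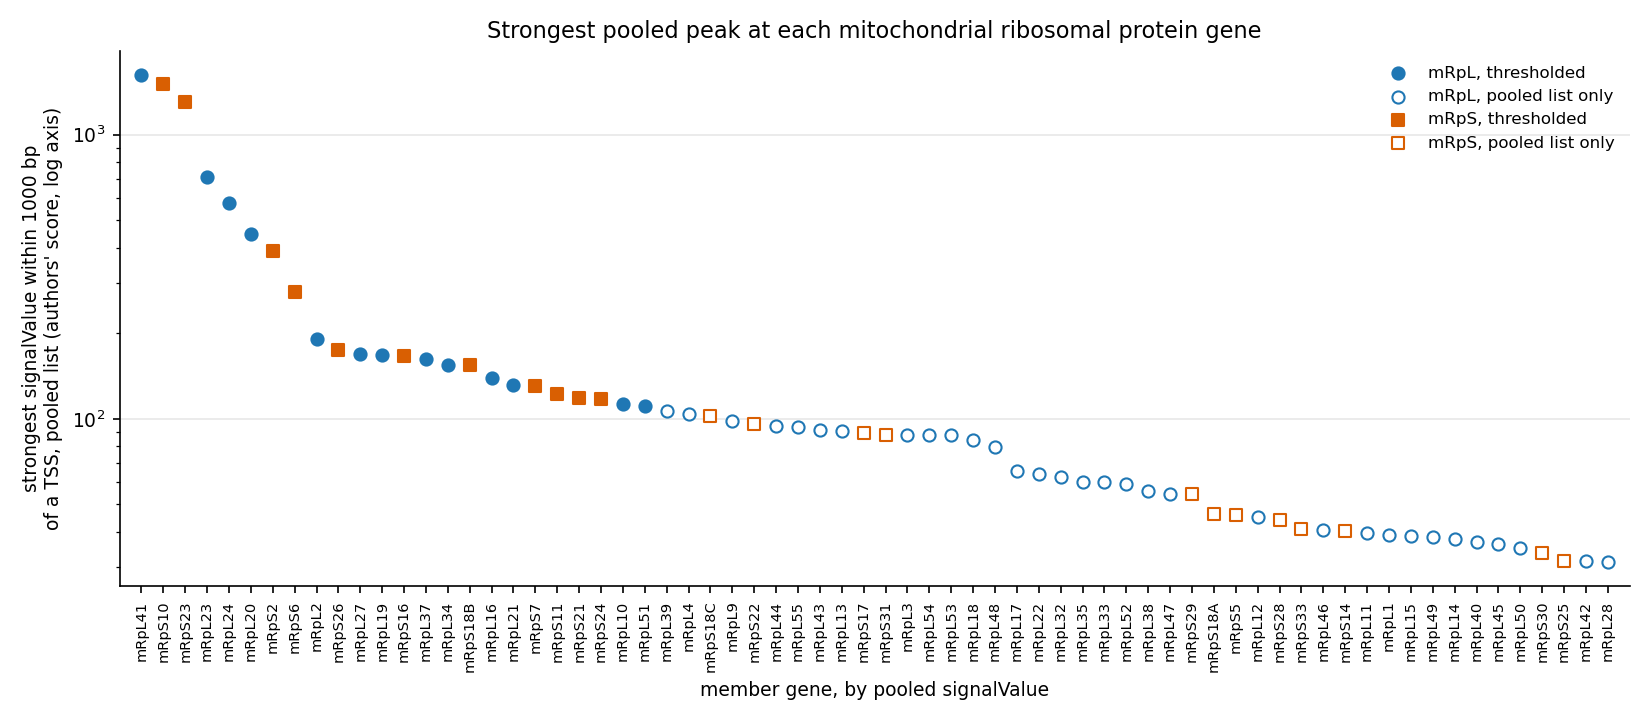
Authors' signalValue (log axis) of the strongest pooled peak within 1000 bp of a start, for each of the 68 member genes with one, ordered by value. Filled symbols are the 24 genes with a thresholded summit and open symbols the other 44, circles are large and squares small subunit genes, and mRpL41, mRpS10 and mRpS23 stand apart at the top with 1621, 1505 and 1299.

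Among the large subunit genes, 13 of 47 (27.7%, interval 15.6% to 42.6%) had a thresholded summit. The strongest belonged to mRpL41 (FBgn0034001), whose protein has no bacterial counterpart. Its peak at chr2R:15217599-15217908 had a pooled signalValue of 1621 and rank 8, with 765 and rank 8 in replicate 1 and 860 and rank 6 in replicate 2. Relative to the start, with negative values upstream, the summits lay at -138, -134 and -138 bp in the pooled list, replicate 1 and replicate 2, in the space between genes. Both replicates thus placed this peak among their 10 strongest and within a few bases of the same position.

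mRpL23 (FBgn0035335) encodes a protein whose bacterial counterpart lies at the exit of the peptide tunnel. Its peak at chr3L:2373464-2373725 scored 707 (rank 86), with 364 (rank 76) in replicate 1 and 326 (rank 99) in replicate 2. The summits lay 62, 67 and 73 bp downstream of the start, within the 5′ UTR of mRpL23. It was 1 of only 2 members with a thresholded summit inside its own transcribed exon. mRpL24 (FBgn0031651), another protein of the tunnel exit in bacteria, had a peak at chr2L:4945375-4945599. It scored 575 (rank 130), with 300.3 (rank 120) and 283 (rank 133) in replicates 1 and 2, and its summits lay at -127, -132 and -127 bp. The peak of mRpL20 (FBgn0036335) at chr3L:13018039-13018270 scored 446 (rank 231), with 232 (rank 221) and 214 (rank 244) in the replicates. Its summits lay at -277, -280 and -259 bp. In all of these the order of the genes by rank was the same in both replicates, and the summits of the 2 replicates lay within 21 bp of each other.

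The remaining 9 large subunit genes had weaker peaks. mRpL2, whose bacterial counterpart lines the peptidyl transferase centre, scored 191 (rank 1243), with ranks 1101 and 1316 in the replicates. Its summit was the most distant of all, at -816 bp from the start of mRpL2. It lay in an intron of the partner gene FoxK, 380 bp downstream of the nearest of FoxK's annotated starts, which is not the start that faces mRpL2. FoxK encodes a forkhead transcription factor. The others were mRpL27 (170, rank 1539), mRpL19 (168, rank 1561), mRpL37 (162, rank 1674), mRpL34 (155, rank 1834), mRpL16 (139, rank 2249), mRpL21 (132, rank 2470), mRpL10 (112, rank 3336) and mRpL51 (111, rank 3431). mRpL10 is a stalk protein, at the place where translation factors dock. mRpL51 was the lowest member inside the threshold, and mRpL39, with 107 and rank 3681 in the pooled list, was the highest outside it.

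Among the small subunit genes, 11 of 26 (42.3%, interval 23.4% to 63.1%) had a thresholded summit. The intervals of the 2 subunits overlap widely. mRpS10 (FBgn0038307) led with a peak at chr3R:15229377-15229695 that scored 1505 (rank 9), with 725 (rank 10) in replicate 1 and 788 (rank 9) in replicate 2. Its summits lay at -128, -124 and -133 bp. mRpS23 (FBgn0260407) followed with a peak at chr2L:13835318-13835626 that scored 1299 (rank 19), with 652 (rank 17) and 640 (rank 21) in the replicates. These summits lay at -395, -390 and -407 bp, and so closer to the start of the partner CenG1A, relative to which the thresholded summit was at -97 bp. With mRpL41, these were the only members with a peak within the first 20 ranks of the pooled list.

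mRpS2 (FBgn0031639), with a peak at chr2L:4850469-4850605, scored 390 (rank 310). Its replicates gave 171 (rank 449) and 211 (rank 252), and the summits lay at -127, -119 and -123 bp. mRpS6 (FBgn0035534), with a peak at chr3L:4364397-4364500, scored 280 (rank 592), with 157 (rank 529) and 115 (rank 820) in the replicates. The summits of mRpS6 lay at -130, -101 and -131 bp. These ranks differed more between the replicates than those of the stronger peaks. The other small subunit genes were mRpS26 (175, rank 1470), mRpS16 (167, rank 1583), mRpS18B (154, rank 1849), mRpS7 (131, rank 2515), mRpS11 (123, rank 2850), mRpS21 (118, rank 3042) and mRpS24 (117, rank 3098). mRpS7 and mRpS11 have bacterial counterparts in the head and the platform of the small subunit.

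The members without a thresholded summit mostly had a weaker pooled peak. The 5 strongest of them were mRpL39 (107), mRpL4 (104), mRpS18C (103), mRpL9 (98.2) and mRpS22 (95.7). mRpL39 ranked 8800 in replicate 1 and 2540 in replicate 2, so it was among the 3672 strongest peaks in replicate 2 alone. Over the 68 members the median pooled signalValue was 88.5 and the median rank 5072.5, against 78.7 and 6187 for all protein-coding genes with a pooled summit. More than 1 pooled summit lay in range at 29 members, and the strongest was used.

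No pooled summit lay within 1000 bp of a start at 5 members, namely mRpL30, mRpL36, mRpS9, mRpS34 and mRpS35. The nearest pooled summits lay 2079 bp downstream of the start for mRpL30, 1352 bp for mRpL36, 3564 bp for mRpS34 and 1370 bp for mRpS35. For mRpS9 the nearest lay at -4845 bp, on the upstream side. mRpL36 had a weak summit in range in each replicate, at ranks 15542 and 15144, and mRpS9 had one in replicate 2 at rank 19285. mRpL30, mRpS34 and mRpS35 had none in any list. At the edge of the distance rule, a weaker pooled summit of mRpL50 at -981 bp (signalValue 30.3) was the last inside, and a further summit of mRpS21 at -1037 bp (79.8) was the first outside.

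The replicates were compared through their own lists of 30000 peaks, of which 1 repeated interval in replicate 2 was counted once. A summit lay in range at 63 members in replicate 1 (86.3%, against 63.0% of all protein-coding genes) and at 66 in replicate 2 (90.4%, against 63.7%). The median rank of the members' strongest peaks was 4707 in replicate 1 and 4770 in replicate 2, against 6153 and 6336 for all protein-coding genes. Among the 3672 strongest peaks of a replicate, 24 members had a summit in replicate 1, 23 in replicate 2 and 18 in both (24.7% of members, against 17.0% of all protein-coding genes). All of those 18 were thresholded members.

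The other 6 thresholded members reached that depth in only one replicate. mRpL16, mRpS21, mRpS24 and mRpL10 did so in replicate 1, with ranks of 4062, 4947, 4534 and 8781 in replicate 2. mRpL21 and mRpL51 did so in replicate 2, with ranks of 4668 and 5517 in replicate 1. The replicate summits of the thresholded members lay close to each other at most genes. The summits of the 2 replicates lay a median of 16.5 bp apart at the 24 genes, at most 20 bp apart at 14 of them and 92 bp apart at mRpL37, the widest. Across 59 members with a summit in both replicates, Spearman's rho of signalValue was 0.788, and across 7717 protein-coding genes it was 0.797. These correlations run across genes, which share their libraries, and are a description only.

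**Figure D2:**
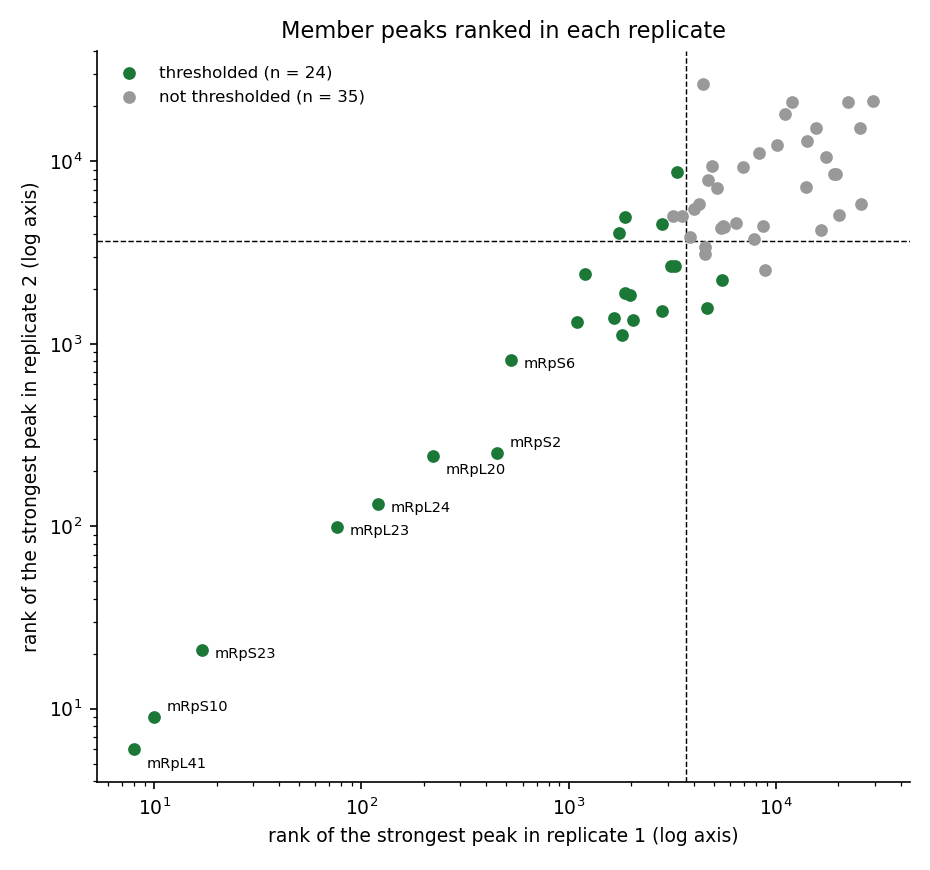
Rank of each member's strongest peak in replicate 1 and in replicate 2 (log axes, rank 1 strongest) for the 59 members with a summit within 1000 bp of a start in both. Dashed lines mark rank 3672, and the 8 labelled genes keep ranks of 6 to 820 while the other 16 thresholded members scatter around the lines.

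Many of the genes are arranged head to head with another gene, so that 1 summit can serve both. A divergent partner, a gene on the other strand whose TSS lies within 500 bp upstream, was found for 53 of 73 members (72.6%), against 29.6% of all protein-coding genes. All 53 partners are protein-coding. The median gap between the paired starts was 264 bp for members and 242 bp for all protein-coding genes with a partner. The arrangement went with the thresholded share. A thresholded summit lay at 21 of 53 members with a partner (39.6%, interval 26.5% to 54%) and at 3 of 20 without one (15.0%, interval 3.21% to 37.9%). Over all protein-coding genes the shares were 39.1% with a partner and 14.5% without. Within each arrangement the members' share was therefore close to the background, while the share over all members, 32.9% against 21.8%, was above it. The 2 subunits differed within this. With a partner the share was 29.4% for large (10 of 34) and 57.9% for small subunit genes (11 of 19). Without one it was 23.1% (3 of 13) and 0 of 7. These counts are small and the difference was not tested.

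The 3 thresholded members without a partner were mRpL41, mRpL19 and mRpL10. All 11 thresholded small subunit genes have one. The partners of the strongest peaks have varied roles. mRpS10 is paired with Art3, an arginine methyltransferase, over a gap of 257 bp, and mRpS23 with CenG1A, a GTPase-activating protein for Arf, over 492 bp. mRpL23 is paired with CG9004 over only 24 bp. mRpL24 is paired with betaggt-I (218 bp), a subunit of a protein prenyltransferase, and mRpL20 with Icmt (399 bp), a methyltransferase of prenylated proteins. mRpS2 is paired with Mon1 (222 bp), which acts in endosome maturation, and mRpS6 with Cip4 (448 bp), a membrane-bending protein.

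The partners at the weaker peaks were as varied. mRpL16 is paired with trr, a histone H3K4 methyltransferase, mRpL21 with rept, an ATPase of chromatin remodelling complexes, mRpS16 with cg, a zinc finger protein, and mRpS7 with the mitotic kinase gene Cdk1. mRpL34 is paired with Dg (dystroglycan), mRpS11 with the GTPase gene Ns1, mRpS21 with the chaperone gene Droj2 and mRpS24 with Apc2. mRpL51 is paired with Uba4, mRpS18B with Kua, mRpS26 with CG13698 and mRpL27 with CG15435. Most summits lay in the space between the pair. Of 21 thresholded members with a partner, 17 (81.0%) had the summit between both starts, against 64.9% of such protein-coding genes. The exceptions were mRpL23, mRpL2, mRpS11 and mRpL51.

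A summit between the starts was often as near to the partner as to the ribosomal protein gene. The partner's start was nearer, or as near, in 12 of 21 cases. Over all 24 thresholded members the member's own start was the nearest in 12 (50%), against 67.5% of thresholded protein-coding genes. A partner was present at 21 of these members but at 1616 of those 3036 genes, so the shares are not like for like. The peaks of members with a partner can therefore not be told apart as peaks of the ribosomal protein gene or of its partner. The 24 members did not share peaks among themselves, since 24 distinct thresholded peaks were counted.

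The distance of the summit from the start had narrower quartiles among thresholded members than among all thresholded protein-coding genes. A partner was present at 21 of the 24 members and at 1616 of the 3036 genes. The distances were not split by partner, so these groups are not alike in arrangement. The median signed distance of the thresholded summit was -142.5 bp (quartiles -165 and -116), against -128 bp (quartiles -235 and -13) for all thresholded protein-coding genes. The summit lay upstream at 22 of 24 members (91.7% against 77%) and within 300 bp upstream at 20 (83.3% against 58.8%). The downstream ones were mRpL23 at 62 bp and mRpS11 at 6 bp, both in the gene's own 5′ UTR. The further ones were mRpS23 at -395 bp and mRpL2 at -816 bp. In the pooled list 57 of 68 members had the summit upstream (83.8% against 69.7%), with a median of -127 bp against -106 bp.

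**Figure D3:**
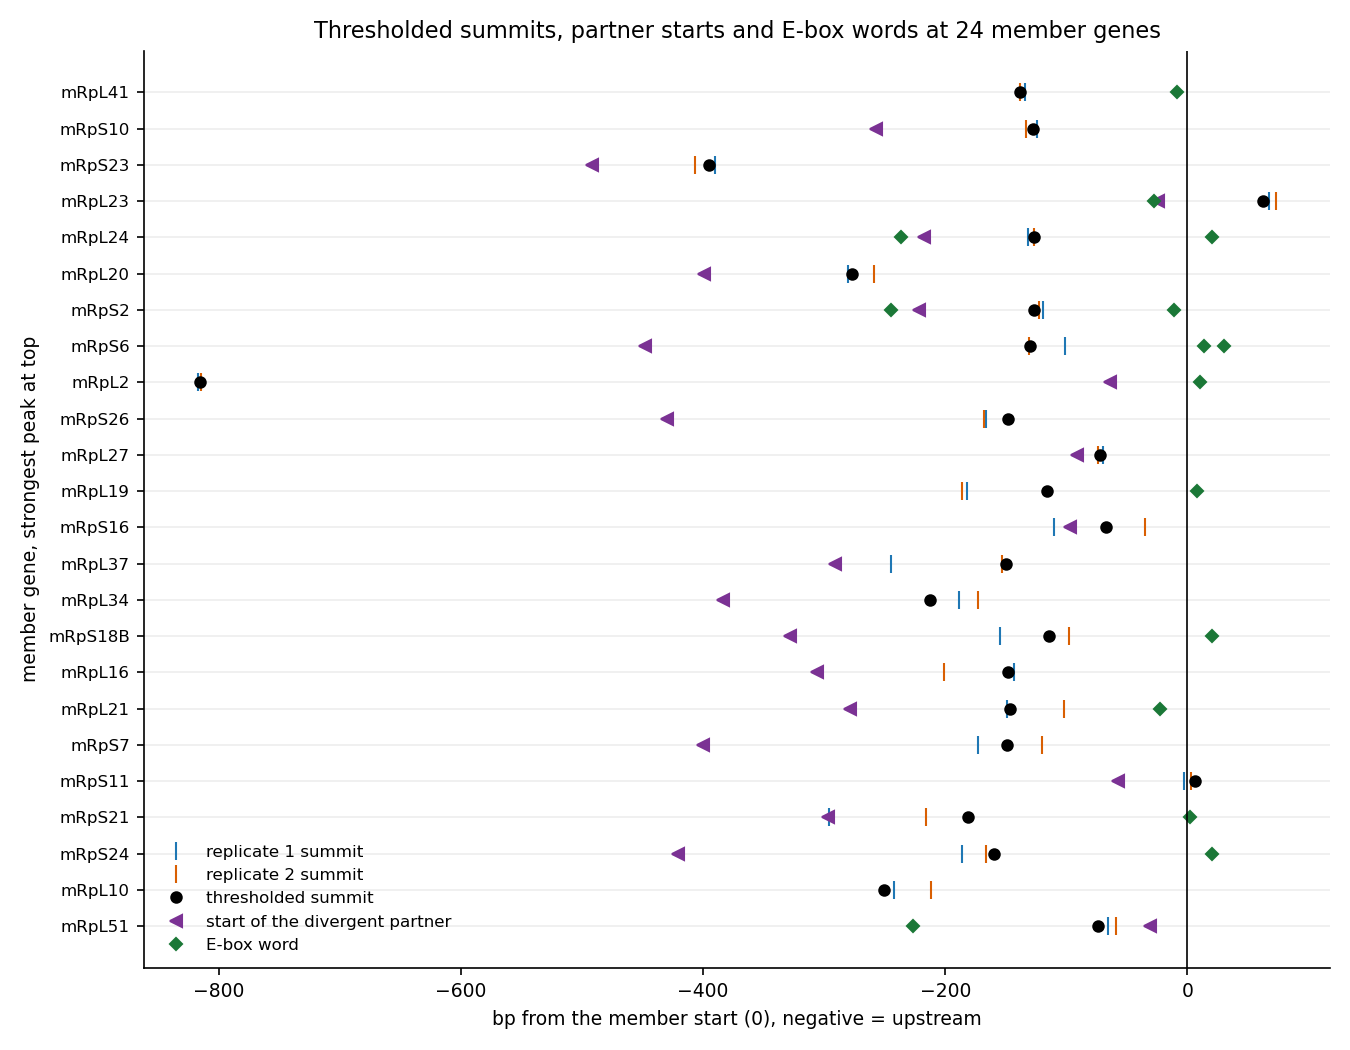
Positions in bp around the start of each of the 24 thresholded members (0, negative is upstream), ordered by signalValue, with the thresholded summit, each replicate's summit, the start of the divergent partner and each E-box word. Summit and partner positions are from the nearest start and E-boxes from the most upstream start. Most summits cluster around the median of -142.5 bp, between the paired starts, while most E-boxes sit at the member's own start.

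The sequence under the thresholded summits was on average rich in A and T. The first set of sequences illustrates this, but it was picked partly for low G and C and is no evidence of it. Within 50 bp of the summit G and C made up 28.5% ± 10.7 (SD, n = 24 genes) at thresholded members, from 15.8% at mRpL20 and mRpL19 to 57.4% at mRpS16. At the 44 members with only a weaker pooled summit the value was 38.1% ± 10.9 (SD, n = 44). All protein-coding genes showed the same order, with 33.9% ± 10.2 (SD, n = 3036) at thresholded summits and 40.9% ± 10.5 (SD, n = 5836) at the others. The GC-rich exceptions among thresholded members were mRpS16, mRpS11 (52.5%) and mRpL2. Whether base composition affects recovery or mapping was not tested, since no reads were used.

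The E-box word CAGCTG was frequent in the promoters, and it lay within 50 bp of none of the thresholded summits. Words were searched on both strands from 250 bp upstream to 50 bp downstream of the most upstream start. They were chosen with earlier results of these data known. The counts by position, partner and subunit were added after values were seen. CAGCTG was found in 40 of 73 members (54.8%, interval 42.7% to 66.5%), against 17.7% of all protein-coding promoters of the same length. It was found in 27 of 47 large and 13 of 26 small subunit genes (57.4% and 50%). It also lay close to the start. Of 45 E-boxes in these promoters 36 were within 50 bp of the start, and 35 members (47.9%) had one there, against 9.34% of all protein-coding genes. The share was 54.7% in members with a partner and 55.0% in those without, against 24.4% and 14.9% of all protein-coding genes.

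Among members a thresholded summit was not more frequent where the promoter held the E-box. Such a summit lay at 12 of 40 members with the word (30.0%, interval 16.6% to 46.5%) and at 12 of 33 without it (36.4%, interval 20.4% to 54.9%). Over all protein-coding genes the shares were 26.5% and 20.8%. None of the 24 thresholded summits had the word within 50 bp, against 4.08% of 3036. For 0 of 24 the upper end of the exact two-sided 95% interval is 14.2%, so a share like that of all genes is not detectable as different. Within 150 bp, 9 of 24 summits had it (37.5%, interval 18.8% to 59.4%, against 20.4%). At the 12 thresholded members with the word the summit lay a median of 134.5 bp from the nearest E-box, from 107 bp at mRpL24 to 829 bp at mRpL2. The second set of sequences shows this spacing at mRpS2 and mRpL21.

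Of the other words, 4 are known from housekeeping promoters. TATCGATA, the DNA replication-related element, was found in 15 members (20.5%, interval 12% to 31.6%, against 9.37%). TCGATA, the word of the insulator protein BEAF-32, which is part of the former, was found in 36 (49.3%, interval 37.4% to 61.3%, against 27.7%). GGTCACAC, the core of Motif 1, was found in 8 (11% against 7.71%), and CATCNCTA, Motif 7, also in 8 (11% against 6.43%). For the last 2 the interval, 4.85% to 20.5%, holds the background share, so they do not stand apart from it. Within 50 bp of the 24 thresholded summits none of these occurred, against 3.59%, 11.1%, 2.31% and 2.24% of all thresholded genes, all below the upper limit of 14.2% for 0 of 24. A word that is missing from a window shows only that those letters are not there.

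The AT-rich word TTTAAAA was found in 31 promoters (42.5% against 27.8%) and within 50 bp of 6 of 24 summits (25% against 15.3%), those of mRpL19, mRpL20, mRpL23, mRpL34, mRpL41 and mRpS6. Those 6 include the strongest peak, at mRpL41, but not the next strongest, at mRpS10. TATAAA was near the background in promoters (46.6% against 45.9%) and under summits (20.8% against 24.4%). TGCGCA, the core of the site of the NRF1 family, was in 6 promoters (8.22% against 6.98%) and under 1 summit, that of mRpS16. AAAATGGC, the core of the PHO site, was in 2 (2.74% against 2.92%), and CTTCCGG, an Ets core, in 0 (against 1.10%).

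Genes of related machinery, grouped by symbol alone, were set beside the members. The cytosolic groups therefore also hold genes named as similar to ribosomal protein genes, such as RpL24-like, RpLP0-like and RpS28-like. Cytosolic ribosomal protein genes had thresholded summits more often, at 45 of 54 RpL genes (83.3%) and 28 of 38 RpS genes (73.7%), against 32.9% of the mitochondrial ones. The median signalValue of their thresholded peaks was 235 for RpL and 179.8 for RpS, against 168 for the members, while their highest was lower, at 562 and 441 against 1621. In the cytosolic genes the share was high without a partner too, at 73.3% for RpL and 66.7% for RpS. Nuclear genes for oxidative phosphorylation subunits, some of whose partner subunits the mitochondrial ribosome makes, had thresholded summits at 18 of 87 (20.7%), near the background. This group was also taken by symbol, includes genes such as COX7AL2 and UQCR-6.4L, and was not checked gene by gene. Its top signalValue was 376. The groups also differed in the E-box word, found in 3 of 54 RpL (5.56%), 6 of 38 RpS (15.8%) and 21 of 87 oxidative phosphorylation genes (24.1%).

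**Figure D4:**
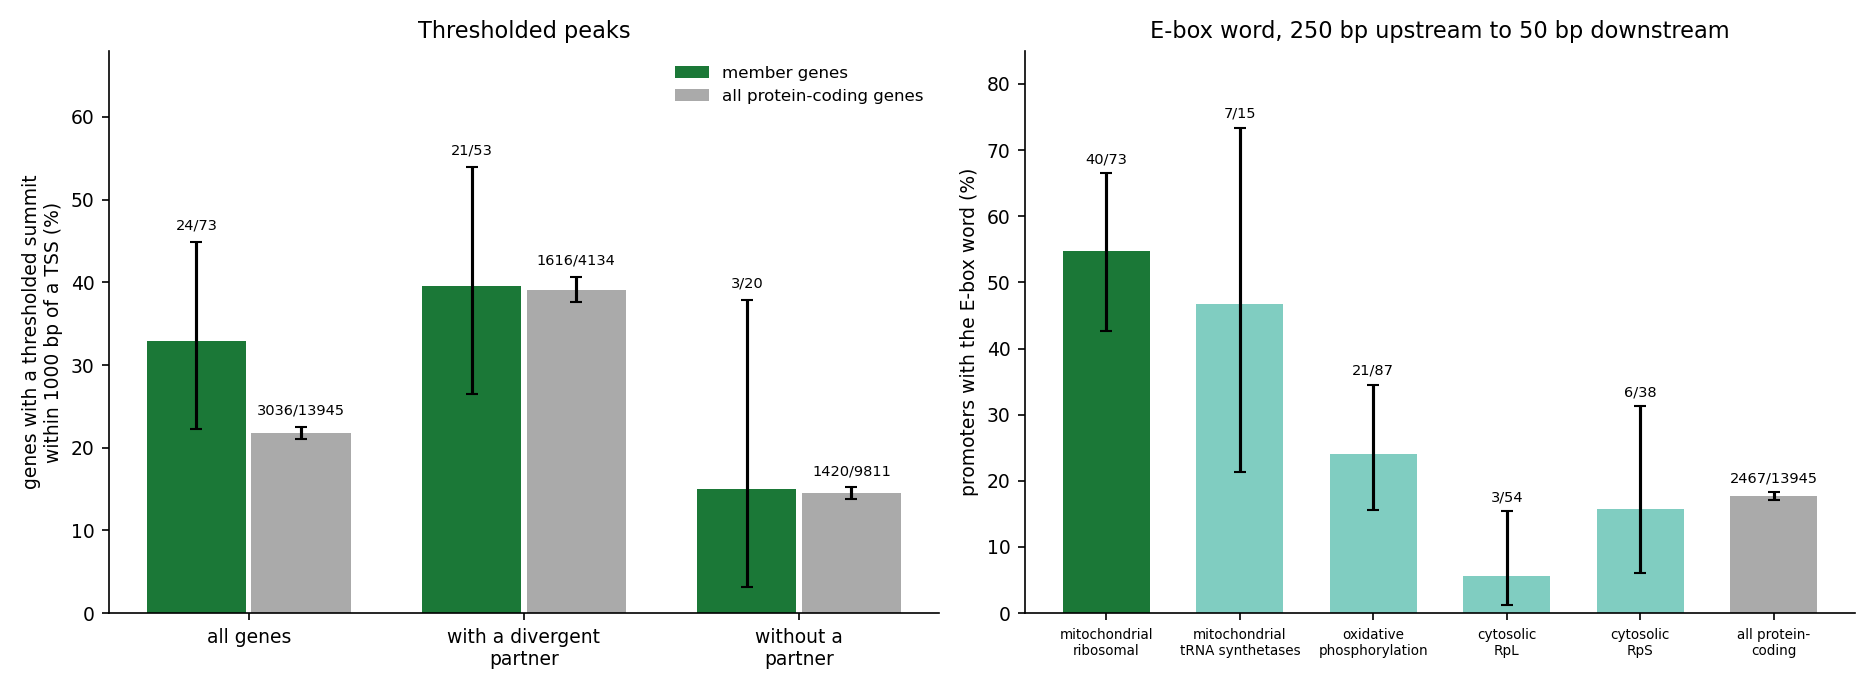
Left, share (%) of genes whose start has a thresholded summit within 1000 bp, for members and for all protein-coding genes, split by divergent partner. Right, share (%) of promoters with the E-box word in members, in related gene groups and in all protein-coding genes. Bars are shares, error bars exact 95% binomial intervals and labels counts, and the member and background bars are close once split by partner (39.6% and 39.1%, 15.0% and 14.5%).

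The other genes of mitochondrial gene expression were read against the background of 21.8% with a thresholded and 63.6% with a pooled summit. tko and bonsai, which encode mitochondrial ribosomal proteins under other names, had 0 of 2, and each had a weak summit in replicate 2 alone, at ranks 16485 and 23267. Of 9 mitochondrial translation factor genes, 0 had a thresholded summit (interval up to 33.6%) and 4 had a pooled one (44.4%). Of 12 genes of mitochondrial transcription and RNA metabolism, 3 had a thresholded summit (25%, interval 5.49% to 57.2%). PNPase, the mitochondrial polynucleotide phosphorylase, had a peak as strong as the top members, with a signalValue of 1284 (rank 20), 577 (rank 25) in replicate 1 and 710 (rank 13) in replicate 2. mTerf5 (131) and mTerf3 (124), of the mitochondrial termination factor family, had ordinary peaks. Of 15 mitochondrial aminoacyl-tRNA synthetase genes, 1 had one (6.67%, interval 0.169% to 31.9%). It was LeuRS-m (346, rank 384), whose summit lay at -842 bp, on the side of its partner Dhc64C. The E-box word was found in 7 of these 15 (46.7%, interval 21.3% to 73.4%), in 5 of the 9 translation factor genes (55.6%) and in both tko and bonsai. These groups are small, their intervals for the thresholded share all hold 21.8%, and none of the differences between them was tested.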

How the data were processed

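ChIP-seq peak lists of GFP-tagged CG12299 were used for 2 biological replicates of 1 group. Per the labels, GFP was the antigen, sonication gave a size range of 200 to 800 bp and the build was dm6. The aligner was not given in the sources used here, nor was the peak caller. Per the deposited manifests, the authors called a list on each replicate and on both together, each against a control that was not analysed here, and derived the thresholded list from these for reproducibility. The signalValue the authors deposited is a score with no stated scale. The authors' deposited −log10 q column was used as an alternative ranking, and 14 of the 24 members' thresholded peaks are tied at its top value of 3.55. Summits are the deposited offsets from the peak start. The 3 lists without a threshold stop at 30000 peaks. The pooled list and that of replicate 2 each held 1 repeated interval, which was counted once.

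Summits were matched to TSSs of Ensembl release 115 on the 6 main arms, within 1000 bp, keeping the peak of highest signalValue per gene. The nearest TSS gave the signed distance, and a divergent partner starts within 500 bp upstream on the other strand. The arm lengths of the release 6 assembly contain all peak ends. Sequence is from that assembly. Matching was tested on simulated data, in which 200 of 200 planted summits and 200 of 200 planted pairs were recovered. Python 3.11.15, numpy 2.4.6, pandas 2.3.3, scipy 1.17.1 and matplotlib 3.10.9 were used. Named genes are every member with a thresholded summit, the 5 next strongest, those at the edge of the distance rule, those with no pooled summit, their partners, and thresholded genes of the related lists. The identity of 1 partner gene is left out here. The members, lists, words and rules were chosen with earlier results of these data known, and the counts of E-boxes by position, partner, subunit and gene group were added after values were seen. Alternatives covered the window, the partner gap, the choice of TSS, the threshold, the word window and each replicate alone. No read counts were used, so depth is unknown. Replicates share a tagged line, and no p-value was computed.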

Additional observations from a re-analysis of the deposited data

How the results depend on the processing

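Of 64 alternative values of the main results, 50 stayed within the tolerance and 14 moved. A count was taken as stable within 1.5 times the reported one, a share within the reported 95% interval, and a distance within 1 SD. With only the strongest 50% of thresholded peaks, 15 members were marked (20.5%, against 12.0% of all protein-coding genes), and 6 of the small subunit. With each replicate cut at 50% of the number, 11 members were in both (15.1% against 9.24%). With partners within 250 bp, 34.2% of members had one, against 15.6%. Word shares within 50 bp of the summit were 0 for DRE, TCGATA, Motif 1, Motif 7, the E-box and the PHO core, 20.8% for TATAAA and 25% for TTTAAAA. For DRE, TCGATA, Motif 1, Motif 7, the E-box and TATAAA they were below the background, while the promoter shares were above it. The intervals of those summit shares all held the background share. Within 150 bp the word shares were 33.3% for TCGATA (31.0% of all thresholded genes) and 37.5% for the E-box (20.4%). The summit windows are shorter than the promoter window or placed elsewhere, so these shares are not of the same stretch.

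The thresholded count of 24 (21.8% of all protein-coding genes) was 23 within 500 bp (19.1%; mRpL2 was lost), 28 within 2000 bp (26.2%) and 24 from the most upstream start (20.2%). It was 19 when only the nearest gene was counted, with starts up to 50 bp further away kept as ties, without mRpS23, mRpL20, mRpL2, mRpL27 and mRpS21, against 16.8% of all protein-coding genes. Leaving out a replicate, with the other's list cut at 3672 peaks, gave 23 to 24 members, of which 20 without replicate 1 and 22 without replicate 2 were among the 24. Ranked by −log10 q, the counts were 25 without replicate 1, of which 21 were among the 24, and 24 without replicate 2. The alternatives for the subunits and gene groups, and those that leave out a replicate for the pooled, distance and both-replicate values, were chosen after seeing the data. No paired analysis was possible because there is 1 group. Depth was not available, so what it limits is unknown.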
